A study of Mus musculus with 11 samples.

Results

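The genes described here encode the protein subunits of the cytosolic ribosome. Members were taken by gene symbol: every row of the deposited matrices whose symbol is Rpl or Rps followed by a digit, or Rpsa, Rplp0, Rplp1 or Rplp2, leaving out 9 symbols with -ps (pseudogenes) and 10 Rps6k kinase genes. The rule found 86 of 31053 genes. Of these, 77 are core subunits (46 of the large and 31 of the small subunit), 8 are paralogues of core subunits (Rpl3l, Rpl7l1, Rpl10l, Rpl22l1, Rpl36al, Rpl39l, Rps27l and Rps27rt), and 1, Rps19bp1, is named as a binding partner of a subunit rather than a subunit. They were measured by droplet single-cell RNA-seq (10x Genomics, 3' end) of dissociated mouse lung in 11 libraries. One library was wild type (+/+), 3 were p21 heterozygotes (+/-), 5 carried p21 mTert (+/mTert) and 2 carried p21 mTertCD (+/mTertCD). The labels do not spell out mTertCD. The series title speaks of mTert switched on where p21 is active, so the p21mTert and p21mTertCD libraries may mix cells with and without induction. Ages are labelled 18 months, except 19 months for p21Het library 1 and 20 months for p21mTert library 1, although every title says 18 months. The wild-type library, p21Het library 1 and p21mTert library 1 carry a shorter title and another library source label than the other 8; they are called the first deposit, and the rest the later deposit. Nothing in the labels says that libraries came from separate animals, so p-values between genotypes or deposits measure the spread between these libraries, which may be technical. Those between lineages measure the spread left after a term for each library and lineage, which may be technical too.

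Each ribosome holds most of these proteins in a single copy, with more of the acidic stalk proteins Rplp1 and Rplp2, around a core of ribosomal RNA. Their mRNAs are short, abundant and stable, and most begin with a C followed by a run of pyrimidines, the terminal oligopyrimidine motif, through which mTOR and LARP1 control their translation together. Resting and growing cells differ in ribosome content, and several subunits are known for work outside the ribosome: Rpl5 and Rpl11 bind Mdm2 and stabilise p53, Rps27l is a p53 target, and mutations of Rps19 cause Diamond-Blackfan anaemia.

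The start sites of 8 members are shown first, because a pyrimidine run at the start is the sequence feature these genes are known for and the 8 differ in it. Each window below is 30 bases of RefSeq sequence (mouse GRCm38.p6), 15 before and 15 from the annotated start on the RNA strand, with its longest run of C and T in capitals. Rps9 (chr7:3704026-3704055, plus strand), Rpl12 (chr2:32961697-32961726, plus) and Rps27 (chr3:90213634-90213663, minus) are core subunits among the most uneven between cell types. Rpl7a (chr2:26910792-26910821, plus) holds a long run. Rps27l (chr9:66946071-66946100, plus), Rpl36al (chr12:69184053-69184082, minus), Rpl22l1 (chr3:28805493-28805522, plus) and Rpl3l (chr17:24727811-24727840, plus) are the paralogues the results turn on; RefSeq lists a second start for Rps27l and for Rpl3l, where the longest run is 4 bases.
Rps9: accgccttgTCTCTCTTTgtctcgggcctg
Rpl7a: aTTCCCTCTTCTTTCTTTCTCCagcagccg
Rps27: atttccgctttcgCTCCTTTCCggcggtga
Rpl12: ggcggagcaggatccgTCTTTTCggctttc
Rps27l: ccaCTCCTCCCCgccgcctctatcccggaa
Rpl22l1: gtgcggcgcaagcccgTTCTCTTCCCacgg
Rpl36al: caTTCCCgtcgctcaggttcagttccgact
Rpl3l: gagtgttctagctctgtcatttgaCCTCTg
The longest runs were 21 bases in Rpl7a, 10 in Rpl22l1, 9 in Rps9, Rps27 and Rps27l, 7 in Rpl12, and 5 in Rpl36al and Rpl3l. The runs of Rps9, Rps27 and Rpl7a cross the annotated start, those of Rpl12, Rpl22l1 and Rpl3l lie after it, and those of Rps27l and Rpl36al lie wholly before it. RefSeq promoter entries were found for 66 of the 86 members, with 78 start sites. A run of 8 or more C or T in a row lay in 28 of the 78 windows (35.9%) and in 26 of the 67 of core subunits (38.8%), against 12% of the 32851 start sites of all genes. Runs of 8 or more A or G, the same letters on the other strand, lay in 3.85% of the member windows and 13.2% of all. In the 300 bases around the start, CCGGAAG, searched on both strands, was present in 34.6% of member promoters and 8.86% of all, and AAGATGGC in 10.3% and 2.75%. These are matches of letters, and annotated starts can lie some bases from the true one.

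Cells with 1000 to 30000 UMIs (unique molecular identifiers, 1 per captured RNA molecule) and at most 14% mitochondrial UMIs were kept, 4721 to 8525 per library with 36248337 to 67722156 UMIs. Tert UMIs, which check the genotype labels, were at 1.90 to 3.28 CPM (counts per 1000000 UMIs of the library or lineage sum) in the 7 libraries labelled mTert or mTertCD and 0.544 to 1.13 in the other 4, with no overlap. Cdkn1a, which encodes p21, was 155 CPM in the wild type and 118 to 187 in the rest, and overlapped between the groups; whether the counted 3' end lies in the altered part of the p21 allele is not given in the sources used here. At most 20 cell barcodes (0.322% of the smaller library) were shared by any pair of libraries. Median mitochondrial share per cell was 2.82% to 6.58%, and all 3 libraries of the first deposit were above all others. B cells were 1.49% of the cells in p21mTertCD library 1, and the highest T cell share, 34.2%, was in the same library. Markers of lung cell types were found in each library: alveolar type 2 (AT2), ciliated, endothelial and fibroblast gates held at least 89, 56, 299 and 73 cells per library.

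Member UMIs were 88881648 of 535916098, or 16.6% of the RNA molecules counted in the retained cells. The 10 most abundant genes held only 21.95% of the members' UMIs. UMI levels between genes compare numbers of captured 3' ends, which need no division by gene length. The highest was Rps29, a small-subunit zinc-finger protein, at a mean of 4841 CPM over 11 libraries (4210 to 6468). Rps24 averaged 4495 (3272 to 6147), Rps27 3959 (2859 to 5061), the stalk protein Rplp1 3820 (3154 to 4801) and Rpl13 3554. At the other end, Rpl10l, a retrogene known from testis, had no UMI in any library. Rpl39l averaged 0.746 CPM (0.133 to 1.96), Rpl3l, known from heart and skeletal muscle, 4.92 (2.90 to 9.80), Rps19bp1 26.6 and Rpl7l1 40.1 (36.5 to 44.2). Rps27l averaged 229 (194 to 268), Rpl36al 338 and Rpl22l1 429. The paralogues were thus among the least abundant members. Ribosomal protein genes have many near-identical pseudogenes. In addition, 27 of the members overlap another coding or antisense gene, among them Rpl5, Rpl12, Rpl22l1, Rpl31 and Rpl36al. Part of the members' counts may thus belong to a neighbour or a copy. Rps27rt (mean 162) is a near-identical copy of Rps27 and its count is uncertain. Of the left-out pseudogenes the most abundant was Rpl10-ps3 at 24.4 to 51.1 CPM.

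The share of RNA given to ribosomal protein genes differed several-fold between lung cell types. Cells were assigned to a lineage when at least 3 of its markers were detected and any other lineage had at most 50% as many; no ribosomal protein gene was a marker. This gave 53284 cells in 14 lineages with at least 20 cells in at least 6 libraries. In T cells 30.0% ± 3.39 (SD, n = 11) of UMIs came from members, the lowest library 23.4% (p21mTertCD library 1), the median 30.3% and the highest 34.2% (wild type). In B cells the share was 27.5% ± 1.38 (24.4% to 29.4%). Natural killer (NK) cells had 20.0% ± 1.71 and classical monocytes 19.3% ± 1.10. Below them were non-classical monocytes (14.0% ± 1.73), interstitial macrophages (13.9% ± 1.23), fibroblasts (10.6% ± 1.03), AT2 cells (9.55% ± 1.08), alveolar macrophages (8.11% ± 1.35) and endothelial cells (8.09% ± 0.673). Ciliated cells had 5.03% ± 0.531 and neutrophils 3.86% ± 0.559, with 4.28% the lowest ciliated and 4.72% the highest neutrophil library. Ciliated cells were nonetheless higher than neutrophils of the same library in 11 of 11. The T cell mean was 7.78 times that of neutrophils and 3.71 times that of endothelial cells.

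**Figure D1:**
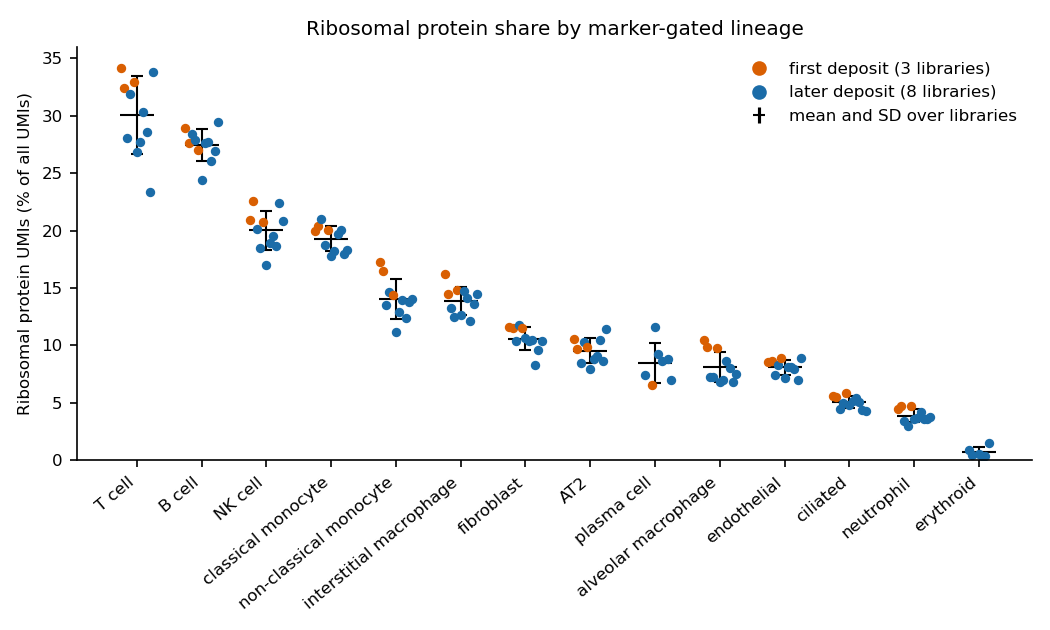
Percent of UMIs from ribosomal protein genes (vertical axis) in each lineage, 1 point per library (orange for the first deposit, blue for the later), with the mean and SD. T and B cells sit at 30.0% and 27.5%, neutrophils at 3.86% and erythroid cells at 0.676%, with myeloid, stromal and epithelial lineages between.

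Neighbours in this order were separate in 5 places: every library's B cells were above every library's NK cells, classical above non-classical monocytes, interstitial macrophages above fibroblasts, endothelial above ciliated cells, and neutrophils above erythroid cells. Other neighbours overlapped. T cells were above B cells in 9 of 11 libraries, NK cells above classical monocytes in 6 of 11, non-classical monocytes above interstitial macrophages in 6 of 11, and alveolar macrophages above endothelial cells in 5 of 11. Median UMIs per cell did not follow the order: 5799 in T cells, 3746.5 in neutrophils, 3561 in endothelial cells and 19576 in alveolar macrophages. Median mitochondrial share was 4.66% in T cells and 0.333% in neutrophils. Plasma cells (8.46% ± 1.71, n = 7) and erythroid cells (0.676% ± 0.448, n = 6) are dominated by a single class of product. Immunoglobulin and globin genes took 44.9% to 63.4% of plasma cell UMIs and 72.5% to 89.0% of erythroid UMIs, and without those genes the ribosomal share was 19.1% ± 1.4 and 4.00% ± 2.71. Of the erythroid cells, 85.4% passed with only the minimum of markers.

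The core genes moved together between lineages. Counts were summed per library and lineage and fitted with edgeR's quasi-likelihood test, each lineage against the mean of the other 13, with the library as a term. A gene is called when its Benjamini-Hochberg adjusted p over the 13933 genes tested is under 0.05. Of the 86 members 84 passed the filter on low counts (Rpl10l and Rpl39l did not). Rpl3l could pass it only through neutrophils, alveolar macrophages and the classical and non-classical monocytes. It is counted among the higher genes of these lineages below, where its calls are a description and no test. In T cells 81 were higher and 1 lower, against 42.3% and 18.6% of all genes, with a median log2 difference of 1.54 (all genes 0.13). In B cells 82 were higher and 1 lower (all genes 40.5% and 18.6%), with a median of 1.42. Classical monocytes had 82 higher and none lower (29.7% and 22.6%), median 0.77, plasma cells 80 higher and none lower (23.4% and 17.6%), median 0.87, and NK cells 78 higher and 2 lower (28.6% and 17.2%), median 0.62. All 77 core subunits were among the higher genes in T, B and plasma cells. Interstitial macrophages had 64 higher and 1 lower (33.3% and 15.9%) at a smaller median, 0.29.

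In the low lineages described here most members were lower, though in neutrophils core subunits such as Rps9 were higher. Counted in either direction, 65.3% of all genes were called in endothelial, 69.3% in ciliated and 23.9% in erythroid cells, 59.5% in alveolar macrophages, 59.0% in neutrophils and, above, 60.9% in T cells, 59.1% in B cells and 52.3% in classical monocytes. In endothelial cells 81 members were lower and only Rpl7l1 higher (all genes 18.7% and 46.6%), with a median log2 difference of -0.85 where the median of all genes was 0.26. In alveolar macrophages 78 were lower and 4 higher (20.4% and 39.1%), median -0.73. In ciliated cells 79 were lower and 2 higher (23.4% and 45.9%), median -1.58. In neutrophils 75 were lower and 6 higher (25.1% and 33.9%), median -1.12. Erythroid cells had 78 lower and 1 higher, Rpl41 (17.8% and 6.17%), but there the median of all genes, -1.59, was below that of the members, -1.09. Both subunits moved alike: the medians of large and small core genes were 1.5 and 1.60 in T cells, -1.13 and -1.14 in neutrophils, -0.71 and -0.83 in alveolar macrophages, and -1.55 and -1.86 in ciliated cells.

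The directions in T, B, plasma, NK, endothelial, ciliated and erythroid cells, classical monocytes, neutrophils and both macrophage lineages held under every scaling run. DESeq2's size factors moved the median of all genes from 0.26 to 0.66 in endothelial and from 0.22 to 0.58 in ciliated cells, and down from -0.08 to -0.42 in neutrophils and from -0.17 to -0.40 in classical monocytes. In fibroblasts and AT2 cells the direction was not settled, and in non-classical monocytes the number of calls was not. Fibroblasts had 59 lower and 4 higher (19.9% and 46.4%), median -0.27, but 29 lower and 29 higher with DESeq2's size factors (71.6% of all genes called), which shifted the median of all genes from 0.29 to 0.62. Non-classical monocytes had 36 higher and 9 lower (27.3% and 19.7%), and 72 higher and 2 lower among cells of at most 15000 UMIs, where 51.2% of all genes were called in either direction. AT2 cells had 35 higher and 10 lower (42.9% and 17.9%), and 81 and 0 among cells of at most 15000 UMIs (50.9% of all genes called). The AT2 balance also turned without p21Het library 3 (15 higher, 42 lower, all genes called 69.2%) and without p21mTertCD library 2 (16 higher, 20 lower, 59.1%).

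**Figure D2:**
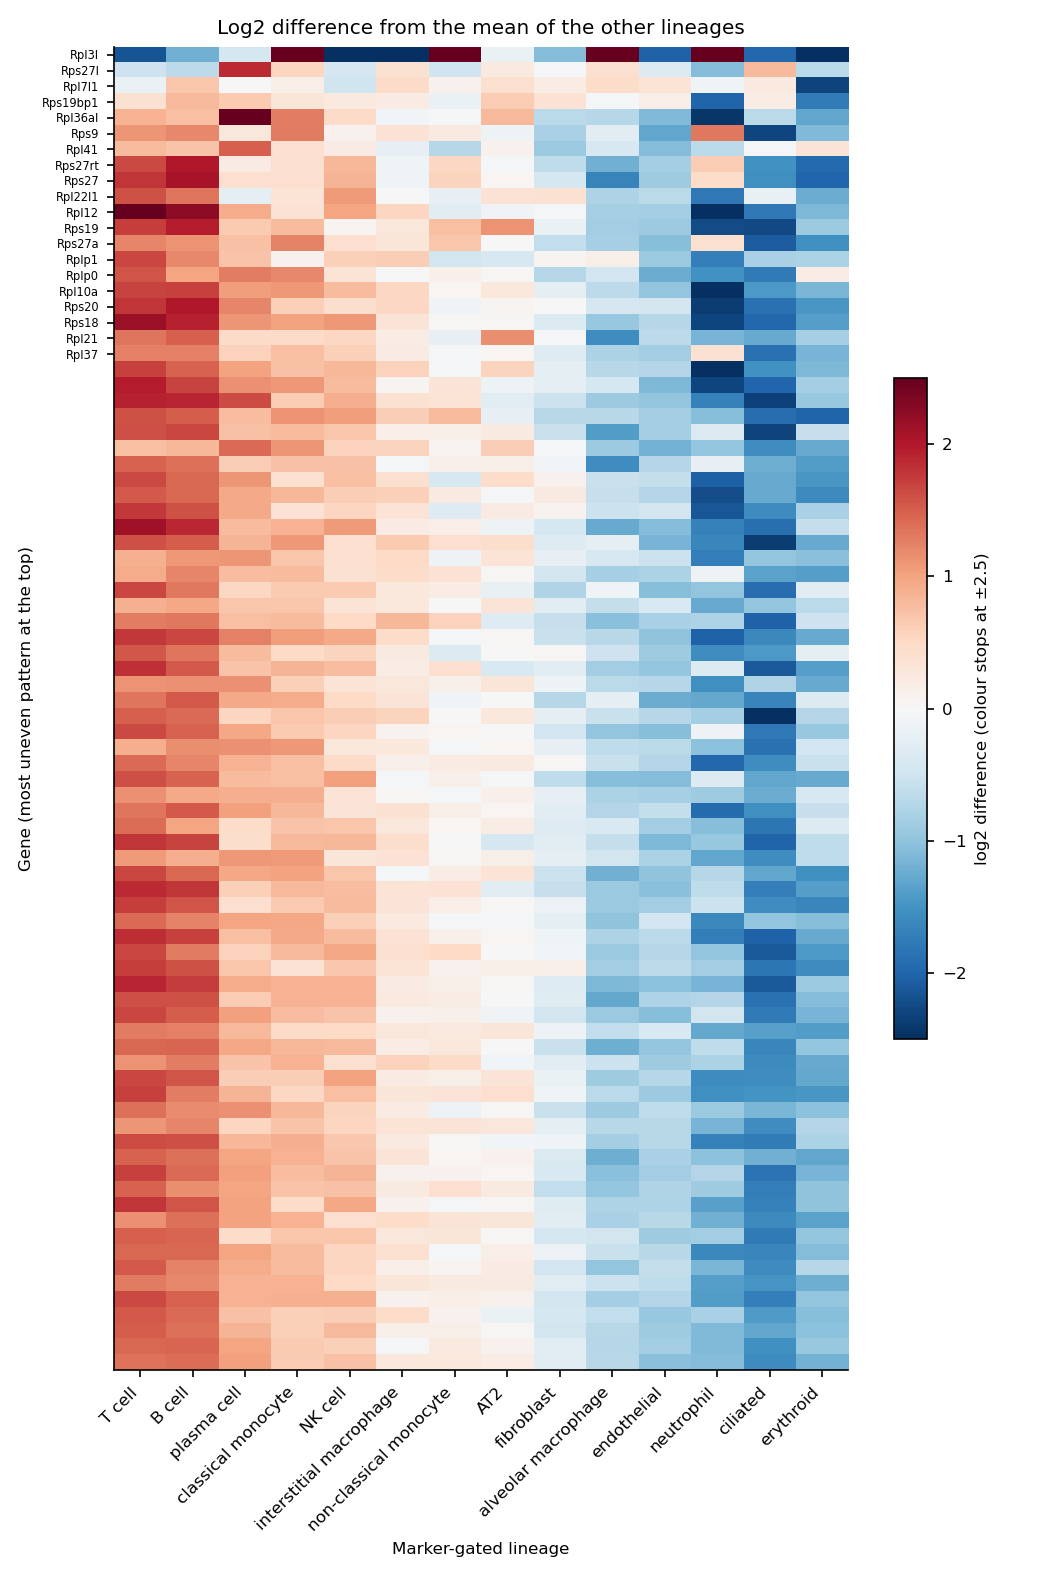
Log2 difference of each of 84 tested genes (rows, the most uneven at the top, the first 20 labelled) in each of 14 lineages (columns) from the mean of the other lineages, colours saturating at 2.5 in either direction. Most rows repeat the same pattern of high T and B cell columns and low neutrophil and ciliated columns, and the top rows hold genes that depart from it in some lineages, such as Rps27l in T and B cells and Rps9 in neutrophils.

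Rpl5, Rpl11, Rpsa, Rps6, Rpl13a and Rplp0 were higher in T cells and lower in neutrophils. Rpl5 was 1.70 higher in T cells and -1.53 in neutrophils on the log2 scale, and Rpl11 1.48 and -1.02. Rpsa, also known as the laminin receptor, was 1.96 in T cells and -2.29 in neutrophils, with mean levels of 5209 and 209.7 CPM. Rps6, the substrate of S6 kinase, was 1.54 and -1.14, Rpl13a, known for silencing inflammatory transcripts, 1.79 and -1.36, and the stalk base Rplp0 1.58 and -1.52. Each of these 12 differences passed the test. Among the stalk proteins Rplp1 departed from its partner: in alveolar macrophages it was called higher (0.15), where Rplp0 was lower (-0.48) and Rplp2 was -0.10, which did not pass.

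Rpl12, which sits at the base of the stalk, had the widest lymphoid lead. In T cells it ranged from 3511 (p21mTertCD library 1) through a median of 5719 to 6268 CPM (wild type), and in neutrophils from 73.8 through 106.8 to 186. The ranges were far apart. Its log2 difference was 2.55 ± 0.06 (SE, n = 11) in T cells, the largest rise of any core member there, 2.23 ± 0.06 in B cells and -2.56 ± 0.09 in neutrophils. Rps18 (2.15) and Rps15a (2.11) came next in T cells. In B cells Rps27 was second (2.06 ± 0.05, mean 8374 CPM).

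Within the ribosomal protein RNA the share of most genes differed less than 3 times between lineages. For the 81 members above 100 CPM, the highest lineage mean of a gene's share was a median of 2.26 times the lowest, and 61 of the 81 were under 3 times. The 5 with the widest spread were Rps27l (17.8 times), Rpl36al (9.38), Rpl22l1 (6.88), Rps9 (6.66) and Rps27rt (5.63). Of these 4 are paralogues, but the core gene Rpl12 came next at 5.58. For Rpl22l1 and Rps27rt the lowest share was in erythroid cells. There ribosomal protein genes took 0.676% of UMIs, and 85.4% of cells passed with only the minimum of markers.

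Rps9, a core small-subunit protein that acts in ribosome assembly, was the main exception in neutrophils. It was 2013 at the lowest, 2714 at the median and 3187 CPM at the highest neutrophil library, while ciliated cells ranged from 397 through 509.2 to 643, and endothelial cells from 869 through 1012 to 1236. Every neutrophil library was above every endothelial and ciliated library, the reverse of the summed share for endothelial cells. Rps9 made up 7.04% of the ribosomal protein UMIs of neutrophils and 1.06% of those of ciliated cells. Its log2 difference was 1.32 ± 0.05 in neutrophils, 1.3 ± 0.05 in classical monocytes, -1.31 ± 0.07 in endothelial and -2.30 ± 0.07 in ciliated cells. Classical monocytes had the highest Rps9 level in 11 of 11 libraries (4314 to 5099).

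The other neutrophil genes called higher, leaving aside Rpl3l (described further on), were Rps27rt (0.64), Rps27 (0.46 ± 0.06), Rps27a (0.41 ± 0.07), a ubiquitin fusion, and Rpl37 (0.38 ± 0.06). With DESeq2's size factors Rps27a (0.10, adjusted p = 0.165) and Rpl37 (0.06, adjusted p = 0.401) no longer passed, and Rps27 fell to 0.14. Rps27 was 0.18 without p21Het library 3, 0.28 without p21mTert library 2 and 0.30 without p21mTert library 3, and still passed in each. Rps27 in neutrophils ranged from 1353 through 1926 to 2180 CPM, below every T cell library (5483 to 8313). Every T cell library was thus above every neutrophil library for Rps27, as for the family. The lowest neutrophil genes were Rpl10a (-2.70), Rpl12 (-2.56) and Rpl3 (-2.52). With no condition on other lineages in the gate they were -1.42, -1.39 and -1.33.

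Rps27l, the p53-responsive paralogue of Rps27, ran against the family in lymphocytes and in ciliated cells. It was the 1 member called lower in T cells (-0.52 ± 0.07) and in B cells (-0.65 ± 0.07), and 1 of 2 called higher in ciliated cells (0.82 ± 0.06). In CPM, ciliated cells had the highest Rps27l level of all lineages in 11 of 11 libraries, 396 at the lowest, 447.7 at the median and 527 at the highest. On edgeR's scale, which makes up for the immunoglobulin share, the Rps27l difference was larger in plasma cells (1.65 to 2.01 over the alternatives). T cells ranged from 128 through 154.3 to 245 (p21mTertCD library 1) and B cells from 125 through 139.4 to 165, all below every ciliated library. Over the alternatives the Rps27l difference was -0.63 to -0.24 in T cells and -0.74 to -0.40 in B cells, smallest among cells of at most 15000 UMIs, and 0.59 to 1.23 in ciliated cells. Alveolar macrophages (0.40 ± 0.06, mean 334) and classical monocytes (0.55 ± 0.06, mean 329) were also higher. In NK cells Rps27l was called lower (-0.43 ± 0.08), but -0.10 among cells of at most 15000 UMIs and -0.03 in cells thinned to 1000 UMIs, neither of which passed. Its parent Rps27 had the opposite order, 8374 CPM in B cells and 1055 in ciliated cells.

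**Figure D3:**
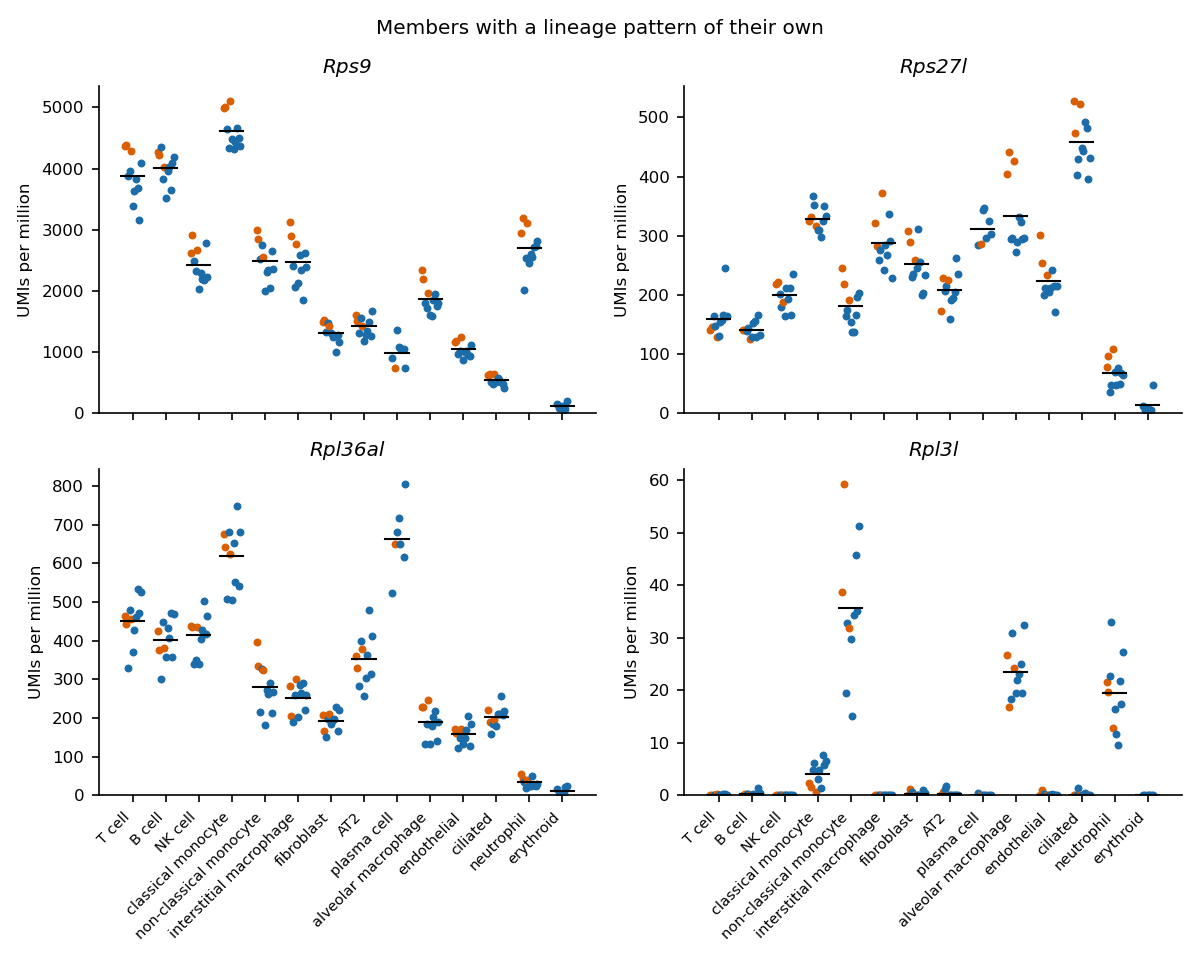
CPM of Rps9, Rps27l, Rpl36al and Rpl3l by lineage, 1 point per library (orange for the first deposit, blue for the later) with a line at the mean. Rps9 is highest in classical monocytes, Rps27l in ciliated cells and Rpl36al in plasma cells and classical monocytes, and Rpl3l is near 0 outside neutrophils, monocytes and alveolar macrophages.

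Rpl36al, a retrogene paralogue of Rpl36a, was highest in plasma cells in 7 of 7 libraries. Its plasma cell level ranged from 523 through 650.0 to 804 CPM, although immunoglobulin genes took much of the total there. Classical monocytes ranged from 504 through 642.0 to 747 and neutrophils from 18.7 through 30.6 to 54.6. Plasma cells and classical monocytes overlapped in range, and both were above every neutrophil library. Its log2 difference was 2.83 ± 0.06 in plasma cells and -2.44 ± 0.08 in neutrophils, on a scale in which edgeR's normalization makes up for the immunoglobulin share. On the same scale Rps27l was 1.86 ± 0.08 higher in plasma cells, where its level was 312 ± 26.3 CPM (SD, n = 7), and Rps24 and Rpl41 were 1.63 and 1.49 higher. Rpl36a itself was highest in T cells (1998 ± 358) and stood at 502 ± 92.1 in plasma cells, below the 663 ± 86.9 of Rpl36al.

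Rpl3l was counted almost only in 4 of the 5 myeloid lineages. Non-classical monocytes ranged from 15.1 through 34.3 to 59.2 CPM, alveolar macrophages from 16.8 through 23.1 to 32.5, neutrophils from 9.63 through 19.7 to 32.9, and classical monocytes from 0.665 through 4.79 to 7.67. It could pass the filter on low counts only through these 4 lineages, so its calls there are a description and no test. In interstitial macrophages, NK cells and erythroid cells no UMI was counted, which allows at most 0.246, 0.504 and 1.37 CPM. The other 7 lineages held 1 to 15 UMIs each over all libraries. Rpl3l (chr17:24727820-24736143, plus strand) ends shortly before Msrb1, a selenoprotein gene that starts at 24736642 on the same strand. Msrb1 was at 2886 CPM in neutrophils, 1019 in classical and 861 in non-classical monocytes, 912 in alveolar macrophages, 88.5 in interstitial macrophages and 37.9 in T cells. Rpl3l UMIs per 100 Msrb1 UMIs were 3.81, 2.5, 0.789 and 0.452 in non-classical monocytes, alveolar macrophages, neutrophils and classical monocytes. In the 7 lineages with 1 to 15 Rpl3l UMIs the ratio was 0.270 (T cells) to 0.641 (plasma cells), a range that includes classical monocytes. The ratio was thus not constant, and the part of Msrb1 transcription in the Rpl3l counts was not tested. Rpl3, its parent, was lowest in neutrophils (107 ± 34.2).

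Rpl22l1, the paralogue of Rpl22, led in lymphocytes as the core genes did. Its log2 difference was 1.60 ± 0.06 in T cells, 1.33 ± 0.06 in B cells and 1.07 ± 0.07 in NK cells, and 0.39 ± 0.07 in fibroblasts. In plasma cells it was -0.24 ± 0.11, which did not pass, while Rpl22 was 0.99 higher there. Ciliated cells held nearly as much Rpl22l1 as Rpl22, 317 ± 59.3 against 348 ± 33.8 CPM, where T cells held 803 ± 110 against 2037 ± 182. Rpl7l1 was called higher in endothelial cells (0.34 ± 0.07), alveolar macrophages (0.47 ± 0.07) and ciliated cells (0.24 ± 0.08). Rps19bp1 was -2.0 in neutrophils and 0.64 in AT2 cells.

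In AT2 cells 2 core genes stood out, Rpl21 (1.16 ± 0.05) and Rps19 (1.13 ± 0.07). Rps19 ranged from 2154 through 2645 to 3281 CPM in AT2 cells, above every endothelial library (998 to 1249) and every ciliated library (332 to 579). Both genes stayed higher under every alternative run, 0.91 to 1.81 for Rpl21 and 0.82 to 1.77 for Rps19. The RNA quality and dissociation list (mitochondrial genes, Malat1, Neat1 and early response genes) was higher for 21 of 22 genes in AT2 cells (all genes 42.9%) and lower for none. In the other lineages its counts of higher and lower genes were 19 and 0 in ciliated, 16 and 2 in plasma, 15 and 5 in B, 13 and 6 in T, 12 and 6 in endothelial cells and 9 and 6 in fibroblasts. They were 9 and 4 in interstitial and 5 and 9 in alveolar macrophages, 7 and 14 in neutrophils, 3 and 14 in classical and 1 and 18 in non-classical monocytes, 0 and 16 in NK and 1 and 12 in erythroid cells. The part of these genes in the members' differences was not tested. In fibroblasts the lowest core member was Rpl41, the shortest ribosomal protein (-0.92 ± 0.07), and in ciliated cells Rps12 (-2.5 ± 0.09).

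Other genes of translation were described from the same fits. Of 20 translation factors and other oligopyrimidine mRNAs, 19 were higher and none lower in T cells (all genes 42.3% and 18.6%), 20 and 0 in B cells (40.5% and 18.6%), and 19 and 0 in NK cells (28.6% and 17.2%). In neutrophils 1 was higher and 19 lower (33.9% and 25.1%), in ciliated cells 0 and 19 (45.9% and 23.4%), and in endothelial cells 1 and 19 (46.6% and 18.7%). Classical monocytes had 18 higher and 2 lower (29.7% and 22.6%), plasma cells 15 and 1 (23.4% and 17.6%), interstitial macrophages 11 and 0 (33.3% and 15.9%) and non-classical monocytes 10 and 3 (27.3% and 19.7%). Alveolar macrophages had 4 and 11 (39.1% and 20.4%), erythroid cells 4 and 15 (6.17% and 17.8%), fibroblasts 2 and 12 (46.4% and 19.9%) and AT2 cells 9 and 4 (42.9% and 17.9%). In T cells Npm1, a nucleolar chaperone, was 1.74 higher and the elongation factor Eef1b2 1.72. In neutrophils Npm1 was -2.68 while Fau, the ubiquitin-like fusion that yields the small-subunit protein Rps30, was 1.41. Fau joins Rps9 as a subunit gene high in neutrophils, though its symbol lies outside the rule.

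For ribosome assembly and the mitochondrial ribosome the same shares of all genes serve as the background. Of 25 ribosome biogenesis genes, 23 were higher and none lower in both T and B cells (all genes 42.3% and 18.6%, 40.5% and 18.6%), led in B cells by Myc (4.53), and 2 were higher and 16 lower in neutrophils (33.9% and 25.1%), where fibrillarin (Fbl) was -2.45. In ciliated cells 11 biogenesis genes were higher and 6 lower (45.9% and 23.4%), in endothelial cells 13 and 7 (46.6% and 18.7%), and in alveolar macrophages 10 and 2 (39.1% and 20.4%), most of them shares near those of all genes. Of 77 mitochondrial ribosomal protein genes tested, 61 were higher and 4 lower in ciliated cells (45.9% and 23.4%), 55 and 6 in T cells (42.3% and 18.6%), and 6 and 59 in neutrophils (33.9% and 25.1%).

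The design sets mTert and mTertCD against p21 heterozygotes and against each other, and the question here was whether ribosomal protein genes differed between them. Over whole libraries the members' share was 20.9% of UMIs in the wild type. It was 18.2%, 13.9% and 16.1% in p21Het libraries 1 to 3 (16.1% ± 2.12). It was 19.7%, 14.9%, 15.6%, 16.4% and 15.5% in p21mTert libraries 1 to 5 (16.4% ± 1.92), and 14.2% and 20.6% in the p21mTertCD pair (17.4% ± 4.58). The genotype ranges overlapped. In sums over a whole lung, fewer cells of a type and less RNA per cell cannot be told apart. The 4 libraries with the highest share, 18.2% to 20.9%, were also those with the most T and B cells, 44.2% to 54.0% of cells against 26.7% to 40.2% in the other 7, and the part of this in the shares was not tested. With each of 12 lineages given equal weight the values drew together: 15.7% in the wild type, 15.3%, 13.8% and 14.1% for p21Het libraries and 15.05%, 12.6%, 13.6%, 14.3% and 13.4% for p21mTert libraries. The p21mTertCD pair had 13.2% and 14.8%.

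**Figure D4:**
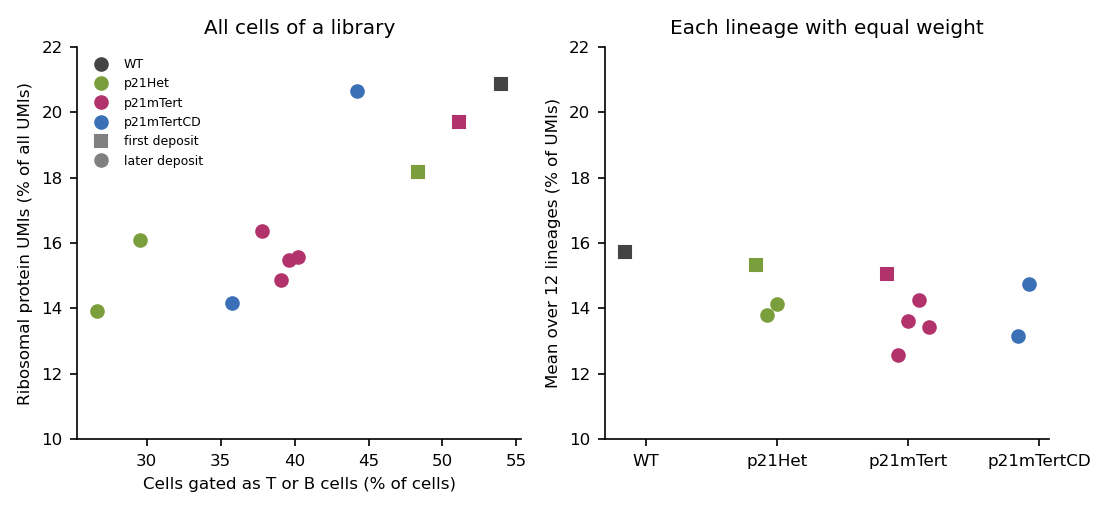
Left, percent of UMIs from ribosomal protein genes against percent of cells gated as T or B cells, 1 point per library. Right, the mean over 12 lineages with equal weight, by genotype, squares for the first deposit and circles for the later; genotypes overlap, and the 3 squares (15.05% to 15.7%) lie above all circles (12.6% to 14.8%). The vertical axis runs from 10% to 22%.

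EdgeR called no member between genotypes. The fits used the 10 libraries other than the single wild type, and 85 members passed the filter over whole libraries. For p21mTert minus p21Het none was called by edgeR (all genes called, 0.0114%), with a median log2 difference of -0.01 and a median SE of 0.14. For p21mTert minus p21mTertCD none was called (all genes called, 0.00571%), median -0.15. For p21mTertCD minus p21Het none was called (all genes called, 0.12%), median 0.15. At an unadjusted edgeR p under 0.05 there were 1, 3 and 1 members in that order. The share of all genes at that threshold is not given here, so these counts have no background. DESeq2 called 1 member, Rpl24 in p21mTert minus p21mTertCD (-0.35, adjusted p = 0.0269), where edgeR gave -0.31 ± 0.11 with an adjusted p of 0.247. In that contrast DESeq2 also called a larger share of all genes than edgeR did, given in the closing section. Rpl24 was 1437, 1228, 1330, 1331 and 1249 CPM in p21mTert and 1429 and 1673 in p21mTertCD, so that the ranges overlapped. The last 2 contrasts each rest on a pair of mTertCD libraries with summed shares of 14.2% and 20.6%.

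Rps27l, a p53 target and so of interest where p21 is altered, did not pass the test in any genotype contrast. It was 227 CPM in the wild type. The p21Het libraries had 247, 241 and 215 CPM, the p21mTert libraries 230, 194, 226, 238 and 208, and the p21mTertCD pair 268 and 222. The edgeR log2 difference of p21mTert from p21Het was -0.15 ± 0.11 (adjusted p = 0.727). That of p21mTert from p21mTertCD was -0.24 ± 0.12 (edgeR adjusted p = 0.353), with -0.47 without p21mTertCD library 2 and -0.05 without library 1. That of p21mTertCD from p21Het was 0.10 ± 0.14 (edgeR adjusted p = 0.901), and it ran from -0.10 to 0.31 without 1 library each. The Mdm2-binding pair, Rpl5 and Rpl11, differed by -0.09 and -0.13 between p21mTert and p21mTertCD and by -0.00 and -0.01 between p21mTert and p21Het, each less than its SE of 0.13 to 0.16.

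Within lineages there was no call either. Endothelial, AT2, T and B cells, alveolar macrophages and neutrophils were each fitted for all 3 contrasts. None of the 83 to 85 members tested was called in any of the 18. In each, 0 to 5 members had an unadjusted p under 0.05. The share of all genes at that threshold is not given here, so these counts have no background. For p21mTert minus p21Het, the share of all genes called was 0.0179% in endothelial, 0.0691% in AT2, 0.033% in T and 0.0523% in B cells, 0.039% in alveolar macrophages and 0.0591% in neutrophils. For p21mTert minus p21mTertCD it was 0.134%, 0.0296%, 0%, 0.00872%, 0% and 0.236% in the same order, and for p21mTertCD minus p21Het 0.00896%, 0%, 0.00824%, 0%, 0% and 0.222%. DESeq2 called none in these 18 either, but its share of all genes called there is not given here, so that count has no background. The p21mTert minus p21Het medians were 0.00 in endothelial and AT2 cells, 0.03 in alveolar macrophages, -0.08 in T cells, -0.09 in B cells and -0.06 in neutrophils. Rps27l had no common direction in p21mTert minus p21mTertCD. It was 0.14 ± 0.10 in endothelial cells, 0.13 ± 0.16 in alveolar macrophages, -0.14 ± 0.16 in B cells and -0.06 ± 0.29 in neutrophils. In AT2 cells it was -0.40 ± 0.13 (edgeR unadjusted p = 0.010, adjusted p = 0.265). In T cells Rps27l was -0.53 ± 0.15 in p21mTert minus p21mTertCD (edgeR adjusted p = 0.303). Its T cell level was 245 in p21mTertCD library 1, the highest of the 11, and that library also had the lowest T cell ribosomal share and mitochondrial share (3.05%). Without p21mTertCD library 2, which leaves library 1 alone and assumes that it varies like the other groups, Rps27l was -0.78 (adjusted p = 0.0103), 8 of 84 members were called against p21mTert (all genes 8.59%) and 17 against p21Het (all genes 9.68%). Without p21mTertCD library 1, Rps27l was -0.23 (adjusted p = 0.999). In neutrophils Rpl3l was -0.94 ± 0.28 in p21mTert minus p21Het (adjusted p = 0.368), and -0.97 (adjusted p = 0.0254) with no filter on low counts.

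**Figure D5:**
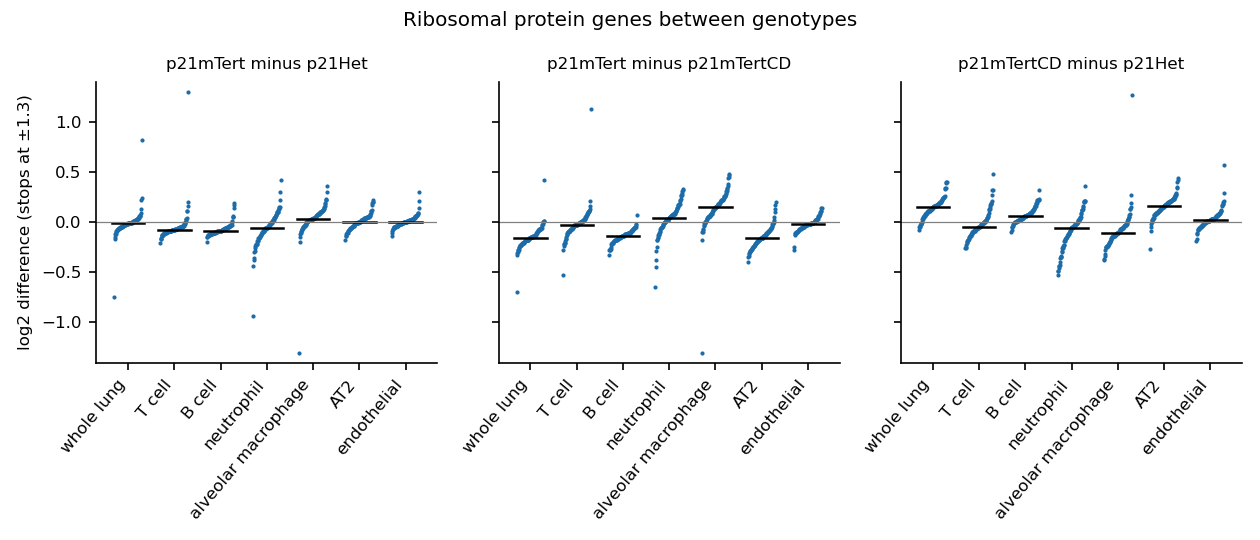
Log2 differences of the members, sorted, for 3 genotype contrasts in whole libraries and in 6 lineages, with a bar at each median and values beyond 1.3 drawn at the edge. Medians lie between -0.16 and 0.16 and no point passed the adjusted test.

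The deposits were compared next. The first-deposit libraries had 18.2%, 19.7% and 20.9% ribosomal UMIs and the later ones 13.9% to 20.6%. In 3 of the 13 lineages measured in both deposits all first-deposit libraries were above all later ones: alveolar macrophages (9.75% to 10.4% against 6.77% to 8.68%), neutrophils (4.42% to 4.72% against 2.98% to 4.16%) and ciliated cells (5.54% to 5.83% against 4.28% to 5.37%). In plasma cells the 1 first-deposit library, at 6.57%, was below the 6 later ones (6.97% to 11.6%). Genotype ranges were separate in some lineages too. The p21mTertCD pair was below all other libraries in ciliated cells (4.35% and 4.28%), above all p21mTert in NK cells (22.4% and 20.8%, where the highest p21mTert value also rounds to 20.8%), and below all p21Het in classical monocytes (at most 18.3% against at least 18.8%). Whether deposit or genotype separates more was not tested. The mitochondrial share, the median UMIs per cell (4133 to 4420 in the first deposit, 5122.5 to 6454 after it) and the share of B cells (29.3% to 38.1%, against 1.49% to 25.8%) separate the same libraries as the deposit and cannot be told apart from it. The wild-type library, labelled 18 months like the later ones, had the first-deposit values (10.4% in alveolar macrophages, 4.42% in neutrophils, 5.60% in ciliated cells), but the fits leave it out, and in them deposit and labelled age cannot be told apart. With group and deposit in a fit of the 10 libraries other than the wild type, over whole libraries edgeR called no member (all genes 0.0171%). There 5 members had an unadjusted p under 0.05, and the share of all genes at that threshold is not given here. DESeq2 called 1 member over whole libraries, and a larger share of all genes than edgeR, given in the closing section. In alveolar macrophages none was called by edgeR (all genes 0.127%), but 54 of 85 had an unadjusted p under 0.05, 7 of 85 were above 0, the median of later minus first was -0.27, and DESeq2 called 28 (all genes 1.10%). Of all 10253 genes tested there by edgeR, 1447 had an unadjusted p under 0.05. The smallest edgeR adjusted p there were 0.0725 for Rpl30 (-0.56 ± 0.10) and 0.0773 for Rps12 (-0.58 ± 0.11). Neutrophils had 22 of 83 with an unadjusted p under 0.05 (all genes 1097 of 6767), none called (all genes 0%), and a median of -0.26. DESeq2 called 5 there (all genes 0.83%), and edgeR 29 in a gate with no condition on other lineages (all genes 5.62%).

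B cells and endothelial cells had few calls. Of 83 members 5 were called higher by edgeR in the later deposit in B cells, among 4.15% of all genes called, and 17 had an unadjusted p under 0.05, all higher (all genes 2379 of 11464). DESeq2 called 11 of 85 there (all genes 3.51%). They included Rps27rt (0.63 ± 0.14), Rps19bp1 (0.55 ± 0.12), Rpl31 (0.45 ± 0.11) and Rps28 (0.43 ± 0.10). None was called after leaving out p21Het library 1 or 3 or p21mTert library 1 or 2, although over all alternatives the differences stayed at 0.58 to 0.71, 0.51 to 0.59, 0.40 to 0.48 and 0.41 to 0.46 in that order. Leaving out p21Het library 1 or p21mTert library 1 leaves the first deposit 1 library in the fit. In endothelial cells edgeR called 1 (all genes 3.12%), with 6 at an unadjusted p under 0.05 (all genes 2118 of 11158), and DESeq2 called 2 (all genes 1.61%). The edgeR call, Rpl31, a large-subunit protein near the exit tunnel, was 388, 416 and 436 CPM among first-deposit libraries and 459 to 560 among later ones, without overlap (0.48 ± 0.08, adjusted p = 0.0124). It did not pass without p21Het library 1 (0.45, adjusted p = 0.195) or p21mTert library 1 (0.54, 0.152). In T and AT2 cells edgeR called none (all genes called, 1.29% and 0.0888%). There 1 and 4 members had an unadjusted p under 0.05, and the share of all genes at that threshold is not given here.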

How the data were processed

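The deposited values are raw UMI counts per gene and cell barcode, 1 matrix per library. Per the labels' protocols, lungs were dissociated with dispase and collagenase, red cells were lysed, and libraries were made with the 10x Genomics 3' V2 kit; the submitters' processing notes name Cell Ranger and mm10. Whether counting used strand is not given in the sources used here. The deposited counts held no per-sample column of another series.

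Of the deposited barcodes, those holding 1000 to 30000 UMIs with a mitochondrial share no higher than 14% were kept, leaving 36248337 to 67722156 UMIs per library. No doublet caller was run; the gate, which asks for at least 3 markers of 1 lineage and at most 50% as many of any other, leaves out cells with mixed markers. It used marker lists for 20 lineages (1 marker had no row), and 14 lineages with at least 20 cells in at least 6 libraries entered the fits. Counts were summed per library, or per library and lineage, and fitted with edgeR's quasi-likelihood test (filterByExpr, TMM), with Benjamini-Hochberg adjustment over all genes tested. Lineage fits used lineage and library as terms, so the SE of a lineage difference comes from the spread left over all 14 lineages. Genotype fits used 10 libraries and the group alone, since the wild type has 1 library, and deposit fits used group and deposit. Summed shares were not tested. A limit for a count of 0 is 3 UMIs and, like UMI levels, covers counting error only.

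Genes were named by rule: called members, up to 12 per direction, a fixed set of paralogues and subunits with known outside roles, the 5 most and 5 least abundant, and the 5 with the most uneven share. Rps4l, in that set, was not analysed here, and 1 called gene is not reported here. Members, lists and rules were chosen with earlier results of these data known. Alternatives covered cell filters, the gate, thinning to 1000 UMIs, scaling, the low-count filter, DESeq2, deposit and replicate terms, and leaving out each library, 314 fits in all; 2 lineage alternatives and the deposit fits within lineages were chosen after seeing the data. The tests were first tried on simulated data. Gene positions are from GENCODE vM21 (GRCm38). Software was Python 3.11.15 with numpy 2.4.6, pandas 2.3.3, scipy 1.17.1 and matplotlib 3.10.9, and R 4.3.3 with edgeR 4.0.16 and DESeq2 1.42.0.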

Additional observations from a re-analysis of the deposited data

Results flagged for a closer look

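In 31 sets of values over the p21mTert libraries, each was asked whether 1 library stood apart by Dixon's criterion, which chance meets in about 1 in 20 sets; 4 did. In erythroid cells the ribosomal share was 1.52% in p21mTert library 5 against 0.377% to 0.527% in the other 3 libraries with enough cells. Rps27rt, whose count is uncertain beside Rps27, was 206 CPM (counts per 1000000 UMIs) in whole-lung p21mTert library 5 against 152 to 167 in the others. Whole-lung p21mTert library 1, the only one of its group in the first deposit, stood apart for Rpsa (3186 CPM against 2231 to 2486) and for Rps9 (3136 against 2283 to 2446). These flags are not particular to the 2 genes. The same library was highest in its group for Rps24 (5830 against 3855.5 to 4278) and for the members' summed share (19.7% against 14.9% to 16.4%). It also had the most T and B cells (51.1% against 37.8% to 40.2%), and the part of this was not tested.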

How the results depend on the processing

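The lineage results in T, B, NK, plasma, endothelial, ciliated and erythroid cells, monocytes, neutrophils and macrophages kept their direction under every alternative that gave a value, although the number of calls in non-classical monocytes moved. Percentages in brackets are the share of all genes called in the same fit. The calls in AT2 cells, 45 in all, became 81 with cells of at most 15000 UMIs (50.9%), 80 after thinning (43.6%), 56 with 1 marker more in the gate (27 higher, 29 lower; 69.4%), 45 with no condition on other lineages (14 higher, 31 lower; 64.7%), and 36 to 57 without 1 library each. Non-classical monocytes went to 74 calls with cells of at most 15000 UMIs (51.2%). Plasma cells at most 15000 UMIs, and erythroid cells in some settings, held too few cells to give a value.

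Between genotypes, DESeq2 called 1 gene in whole-lung p21mTert minus p21mTertCD (2.36%), and no filter on low counts gave 1 in alveolar macrophages for that contrast (0.0997%) and 1 in neutrophils for p21mTert minus p21Het (0.836%). Without 1 library each, T cells had 0 to 8 calls for p21mTert minus p21mTertCD and 0 to 17 for p21mTertCD minus p21Het. The highest count in each contrast came without p21mTertCD library 2, which leaves library 1 alone in its group. The shares of all genes called in that fit are given with the T cell results above. A group of 1 library shows no spread of its own, so no conclusion is drawn from these counts. The summed share ran from -0.73 to 1.39 percentage points for p21mTert minus p21Het, from -4.25 to 2.23 for p21mTert minus p21mTertCD and from -1.89 to 4.59 for p21mTertCD minus p21Het. Rps27l over whole lung ran from -0.10 to 0.31 in p21mTertCD minus p21Het. Whether replicate numbers pair the libraries could not be decided. Same-number pairs correlated at -0.506 to 0.233 (7 pairs) and other pairs at -0.389 to 0.655 (24 pairs). Values with the 2 p21mTertCD libraries mirror each other by construction. With the number as a replicate block, which leaves few libraries to measure spread, 0 members were called in every genotype comparison. At most 0.065% of all genes were called in any of these fits, so the 0 is no result about the members. Rps27l in T cells was -0.62 there for p21mTert minus p21mTertCD.

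For the deposit, DESeq2 called 1 gene over whole lung (3.00%), 2 in endothelial cells (1.61%), 28 in alveolar macrophages (1.10%), 11 in B cells (3.51%) and 5 in neutrophils (0.83%). No filter on low counts gave 2 (4.69%), 10 (1.02%), 3 (3.83%) and 2 (1.70%) in endothelial cells, alveolar macrophages, B cells and neutrophils. A mitochondrial limit of 8% gave 2 in endothelial (2.92%) and 3 in B cells (2.64%), DESeq2's size factors 2 in endothelial cells (3.17%), a gate with no condition 1 in B cells (1.74%) and 29 in neutrophils (5.62%), and at most 15000 UMIs 2 in neutrophils (0.671%). Without 1 library each, calls ran from 0 to 2 in endothelial cells, 0 to 14 in alveolar macrophages (14 without p21Het library 2, 2.5%), 0 to 1 in T cells, 0 to 6 in B cells and 0 to 5 in neutrophils (5 without p21Het library 2, 1.31%). For endothelial, T and B cells the share of all genes in these fits is not given here, so their counts have no background. The cause of these changes was not tested. Low counts, such as the 406 UMIs of Rpl39l over all 11 libraries, and lineages with few cells limit what could be detected.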
